A study of Mus musculus with 4 samples.

Results

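Helios-positive Foxp3 regulatory T cells were taken as cell barcodes with at least 1 unique molecular identifier (UMI, a counted transcript molecule) of Foxp3 and at least 1 of Ikzf2, the gene of Helios. They numbered 2815 of the 19960 barcodes kept from recipients 1, 2 and 4 (14.1%). The series holds 25439 barcodes in all. The kept barcodes had 500 or more detected genes and no more than 10% of their UMIs from mitochondrial genes. The counts of Foxp3 and Ikzf2 chose these barcodes, so the levels of both genes are given as a description, with no test.

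The study profiled CD4 T cells from the lamina propria of the small intestine of 4 irradiated Rag1-/- mice, hosts that cannot make T or B lymphocytes. Each had received 10000000 bone marrow cells, 50% of wild type CD45.1+ and 50% of Bcl3-/- CD45.2+ origin, 16 weeks earlier. All recipients form 1 group, and both donors' cells share the host, the irradiation and the tissue. Sorted CD45+CD3+CD4+7AAD- cells had been stained with DNA-tagged antibodies to both CD45 forms, and the tags in a droplet name the donor. The labels give neither the ages of the animals nor how many donors were pooled, and which part of Bcl3 is deleted in the Bcl3-/- allele was not stated in the labels read here. The library of recipient 3 was left out by the rule that chose the barcodes, because its RNA was judged to be mixed between cell types: there 1284 of 3626 kept barcodes (35.4%) held both genes, at a median of 13718 UMIs.

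Foxp3 is the transcription factor that defines regulatory T (Treg) cells, which restrain other immune cells. Helios is a zinc finger protein of the Ikaros family, found in many Treg cells that matured in the thymus and also in activated T cells. In the gut, Helios-positive Treg cells are known beside Treg cells that depend on the microbiota, and they include cells with Gata3, the IL-33 receptor ST2 and the repair factor amphiregulin. Treg cells also display latent TGF-beta on GARP, the product of Lrrc32, and release it with the integrin formed by Itgav and Itgb8.

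The double-positive barcodes were 1153 of 9301 kept barcodes in recipient 1, 1413 of 9244 in recipient 2 and 249 of 1415 in recipient 4. These are 12.4%, 15.3% and 17.6%, with exact binomial 95% intervals of 11.7 to 13.1, 14.6 to 16.0 and 15.6 to 19.7, which cover counting error only. A further 971 barcodes held Foxp3 and no Ikzf2 (Foxp3-only), 6835 held Ikzf2 and no Foxp3 (Ikzf2-only) and 9339 held neither. Of the barcodes with Foxp3, 70.5%, 77.1% and 78.5% also held Ikzf2 in recipients 1, 2 and 4. An Ikzf2 UMI was common without Foxp3, in 44.5%, 39.1% and 48.4% of the barcodes with no Foxp3. With every barcode thinned to 3000 UMIs, which left out 65, 73 and 38 members, the Ikzf2 shares were 58.2%, 69.6% and 74.8% with Foxp3 and 32.9%, 29.1% and 36.5% without. In all recipients the share was thus higher with Foxp3 at equal depth. Of 8 barcodes with a myeloid profile, 0 held Foxp3 and 3 held Ikzf2. By the approximate limit of 3 divided by the number of barcodes, not an exact interval, a Foxp3 share of up to 37.5% is allowed. Free RNA could thus be measured only coarsely.

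The libraries of recipients 1, 2 and 4 held 60347749, 59190104 and 8642411 UMIs. The median double-positive barcode had 5807, 5732 and 5425 UMIs in the 3 recipients, and the median Foxp3-only barcode 5228, 5249.5 and 4989. The rule thus chose slightly deeper barcodes than the Foxp3-only class. Of the members, 52 exceeded 3 times the median UMI count of their library. Barcodes shared between any 2 libraries numbered at most 33, and 0 of these had the same UMI total. Levels are UMIs of a gene per 1000000 UMIs (CPM), summed over the barcodes of a class in 1 recipient. In these sums, fewer cells that express a gene and less RNA per cell cannot be told apart.

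Foxp3 (chromosome X, 7573644 to 7595245, plus strand, mm10) stood at 383, 407 and 544 CPM in the double-positive barcodes of recipients 1, 2 and 4. In the Foxp3-only barcodes it stood at 402, 406 and 586 CPM, so the groups overlapped, and recipient 4 was the highest in both. Ikzf2 (chromosome 1, 69531214 to 69687245, minus strand) stood at 777, 989 and 1143 CPM in the double-positive barcodes. In the Ikzf2-only barcodes it stood at 417, 429 and 524 CPM, below every double-positive value. The median member held 3, 5 and 5 Ikzf2 UMIs, and 1581 members (56.2%) held 4 or more. At the edge of the rule, 198 members (7.03%) held exactly 1 UMI of each gene, with 9.99, 8.03 and 0 CPM of Itgb8 and 49.9, 44.2 and 0 CPM of Tnfrsf9 in recipients 1, 2 and 4. Il17a stood there at 2365, 861 and 0 CPM, and at 649, 440 and 17.5 CPM in the 1578 members with 2 or more UMIs of each gene. The 406 barcodes just outside, with 1 Foxp3 UMI and no Ikzf2, had 3.71, 3.09 and 0 CPM of Itgb8 and 41.8, 31.9 and 17.3 CPM of Tnfrsf9.

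The label was set beside Itgae, Itgb8, Lrrc32 and Tnfrsf9, markers proposed with earlier results of these data known. They are therefore no independent check of it. Itgae, the CD103 chain of the integrin that holds T cells at E-cadherin, stood at 205, 228 and 370 CPM in the double-positive barcodes. It stood at 104, 148 and 279 CPM in Foxp3-only and at 28.6, 28.9 and 39.3 CPM in barcodes with neither gene. Within each recipient the double-positive class was the highest, although recipient 4 of the Foxp3-only class exceeded recipients 1 and 2 of the double-positive class. Itgb8 stood at 39.7, 64.4 and 80.0 CPM, against at most 7.89 CPM in Foxp3-only, 25.4 CPM in Ikzf2-only and 3.99 CPM in barcodes with neither. Lrrc32 stood at 16.8, 26.6 and 22.3 CPM, against at most 7.14 CPM in any other class and recipient. Tnfrsf9, the costimulatory receptor CD137, stood at 194, 236 and 208 CPM, against at most 63.8 CPM in any other class and recipient. For Itgb8, Lrrc32 and Tnfrsf9 the double-positive values lay above every value of the other classes taken whole. Within the Ikzf2-only class, the 1660 barcodes with 4 or more Ikzf2 UMIs held 13.5, 27.8 and 46.3 CPM of Itgb8 in recipients 1, 2 and 4. They held 43.8, 107 and 104 CPM of Tnfrsf9. Their Itgb8 value in recipient 4 exceeded the double-positive one of recipient 1. The part of the Ikzf2 count in these markers was not tested, and the markers did not go against the label.

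**Figure D1:**
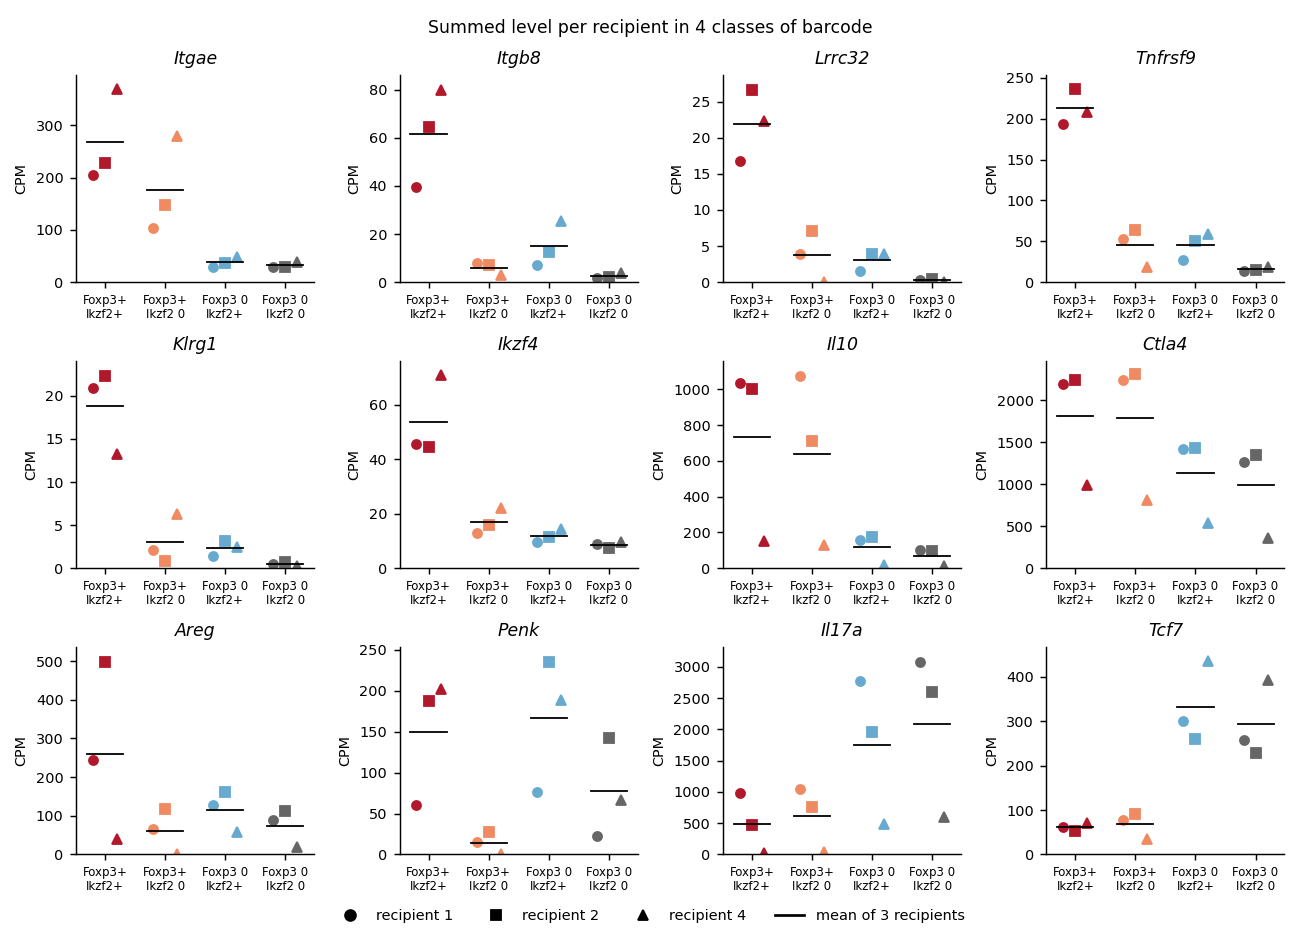
Level in CPM (y axis, linear, from 0) of 12 genes in 4 classes of barcode, by the presence of Foxp3 and Ikzf2 UMIs, with 1 point per recipient (circle 1, square 2, triangle 4) and a line at the mean of the 3 recipients. Itgb8, Lrrc32, Tnfrsf9 and Klrg1 are highest in the double-positive class, Il10 and Ctla4 are at similar levels in both Foxp3 classes, and recipient 4 is low in Il10, Ctla4, Areg and Il17a throughout.

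Markers of other cell types were summed over lists of genes. The 6 gamma-delta T cell genes summed to 23.0 to 46.9 CPM in the double-positive barcodes and to 192 to 331 CPM in the 2 classes with no Foxp3. The 7 innate lymphoid genes summed to 21.6 to 30.7 CPM, against 46.0 to 91.1 CPM in those 2 classes. The 7 B cell genes summed to 273, 2020 and 548 CPM in recipients 1, 2 and 4, and the 6 plasma cell genes to 136, 1169 and 165 CPM. Recipient 2 was the highest in both lists: it had 18 barcodes with at least 50 Igkc UMIs, of which 7 were double-positive. Of the plasma cell sums, Xbp1 alone held 125, 122 and 145 CPM in recipients 1, 2 and 4. The 7 epithelial genes summed to 30.9, 39.9 and 29.9 CPM, against 4.29 to 12.6 CPM in the other classes, with Krt19, Vil1 and Phgr1 at 0 in the double-positive barcodes. The 7 myeloid genes summed to 213 to 242 CPM, against 217 to 257 CPM in Foxp3-only and 145 to 207 CPM in the 2 classes with no Foxp3. Most of the double-positive myeloid sum was 1 gene, Cst3, at 202, 223 and 214 CPM in recipients 1, 2 and 4. Mast cell, stromal and red cell markers summed to at most 44.7 CPM in the double-positive barcodes, and 4 of 5 red cell markers were at 0. The stromal sum was almost all Pecam1, at 44.6, 39.1 and 33.4 CPM. The part of these other transcripts in the results was not tested, except where immunoglobulin-rich barcodes were left out below.

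The first comparison asked what else distinguishes Helios-positive Treg cells from the rest of the sorted CD4 T cells. The integrin chains Itgb8 and Itgae, the costimulatory receptor Tnfrsf9 and the cytokine Il10 were higher in the double-positive barcodes, and the cytokines Il17a, Il17f, Ifng and Il21 were lower. The largest rises among well-expressed genes were in Mt1, a metallothionein that binds zinc, in Itgb8, Tnfrsf9, Il10, Itgae, Snx9, Hoxb4, Ikzf4, Rgs16 and Ncmap, by log2 3.26 to 2.11. The largest falls were in Slamf7, Il17f, Gm14718, Il17a, Pxdc1, Ifng, Tcf7, AC163354.1, Itga1 and Il21, by log2 -2.96 to -2.14. Of 11188 genes tested with edgeR's quasi-likelihood test on the sums of each recipient, 23.5% were called (2629), with 12.1% higher (1359) and 11.4% lower (1270), and the median log2 difference was -0.000127. Donor makeup moved with the class: CD45.1 cells were 36 of 1153 double-positive against 700 of 8148 other barcodes in recipient 1, 40 of 1413 against 811 of 7831 in recipient 2, and 3 of 249 against 99 of 1166 in recipient 4. Among CD45.2 barcodes alone, an alternative chosen after seeing the data, 2478 genes were called, of which 2391 were called in both fits. With recipient 3 added, 0 genes were called by edgeR (2578 at an unadjusted p under 0.05).

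Among Treg identity genes, 11 of 12 tested were higher and 0 lower, with a median log2 difference of 1.41. Lrrc32 rose by log2 3.74 (SE 0.17, adjusted p = 1.24e-06), from 1.03, 2.12 and 1.89 CPM in all other barcodes. Ikzf4, the gene of the Ikaros family member Eos, rose by log2 2.27, from 9.45, 9.33 and 12.6 CPM to 45.6, 44.3 and 71.0 CPM. The TNF receptor family members Tnfrsf4 (OX40) and Tnfrsf18 (GITR) rose by log2 1.94 and 1.55, Nrp1 (neuropilin) by 1.83 and Il2ra, the high-affinity chain of the IL-2 receptor, by 1.28. In each of these the recipients' values for the 2 classes did not overlap, apart from Nrp1. Ctla4, the coinhibitory receptor, rose by log2 0.76 (SE 0.08), from 1393, 1434 and 467 CPM to 2197, 2245 and 993 CPM. Its ranges overlapped, with recipient 4 low in both classes. Cd5, at log2 -0.02 (SE 0.05, adjusted p = 0.827), was the list member that did not pass.

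Of 22 genes of effector and tissue Treg cells, 18 were higher and 1 was lower (median log2 0.89). Tnfrsf9 rose by log2 2.88 (SE 0.11, adjusted p = 5.17e-07) and Itgae by 2.62 (SE 0.06, adjusted p = 4.44e-08). Klrg1, a receptor of terminally differentiated T cells that binds E-cadherin, stood at 20.9, 22.3 and 13.2 CPM against 1.01, 1.69 and 1.60 CPM in other barcodes, a rise of log2 3.88 (SE 0.22). All double-positive values were above all others, although the gene was found in only 6.68%, 5.87% and 3.61% of the double-positive barcodes (4.23%, 4.03% and 2.84% of the thinned ones, and at most 0.216% of thinned barcodes with neither gene). Cd83 rose by log2 1.76, the chemokine receptors Ccr8, Ccr2 and Ccr4 by 1.72, 1.42 and 1.15, and Icos and Batf by 0.80 and 0.70. Rora was lower, at log2 -0.40. Irf4, Ikzf3 and Pdcd1 did not pass, at log2 0.21, 0.08 and 0.28.

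Suppressive mediators were mostly higher, 10 of 12 tested, with 1 lower and a median log2 difference of 0.89. Il10 stood at 1036, 1003 and 155 CPM in the double-positive barcodes and at 179, 155 and 20.6 CPM in the others. Recipient 4 was lower in both classes, so the ranges met, and within each recipient the double-positive barcodes were higher, by log2 2.64 (SE 0.07, adjusted p = 1.14e-07). Ebi3, a subunit of IL-27 and IL-35, rose by log2 2.85 and its partner Il12a was too low to be tested. Entpd1 and Nt5e, the ectoenzymes CD39 and CD73 that turn ATP into adenosine, rose by log2 1.62 and 1.09. Gzmb, a granzyme, rose by 1.27, and Fgl2 by 0.85. Furin, the proprotein convertase that cleaves pro-TGF-beta, was lower, at 535, 429 and 218 CPM against 846, 843 and 337 CPM (log2 -0.80, SE 0.07).

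In the TGF-beta list, 8 of 12 genes were higher and 1 was lower (median log2 0.37). The list also holds Lrrc32 and Itgae, given above at log2 3.74 and 2.62. Itgb8 rose by log2 3.06 (SE 0.13, adjusted p = 1.14e-06) and its partner Itgav by 1.39. Itgav stood at 187, 217 and 120 CPM against 65.2, 73.3 and 63.2 CPM, with no overlap. Tgfb1 itself rose by log2 0.28. The 2 receptor chains went opposite ways, Tgfbr1 higher by log2 0.93 and Tgfbr2 lower, at 121, 106 and 83.5 CPM against 206, 212 and 210 CPM. Smad3 did not pass, at log2 0.09.

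The ST2, Gata3 and repair list had 7 of 9 tested genes higher and 1 lower (median log2 0.54). Il1rl1, the gene of ST2, was sparse, at 8.39, 3.41 and 4.87 CPM against 0.350, 0.536 and 0.145 CPM, a rise of log2 3.70 (SE 0.42) with no overlap. It was log2 2.92 without recipient 1 and 4.57 without recipient 2. Areg, amphiregulin, stood at 244, 497 and 39.7 CPM against 105, 132 and 37.0 CPM. The difference was clear in recipients 1 and 2 and small in recipient 4, in all log2 1.36 (SE 0.21, adjusted p = 0.00131, and not called by DESeq2). Gata3 differed little, at 76.2, 71.1 and 85.6 CPM against 59.5, 62.6 and 76.6 CPM (log2 0.22, adjusted p = 0.0329), a call lost without recipient 1 or without recipient 2. The IL-18 receptor gene Il18r1 was lower, at log2 -0.39.

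Effector programmes were lower. Of 12 genes of the Th17 programme, 7 were lower and 1 was higher (median log2 -0.37). Il17a stood at 979, 463 and 16.0 CPM in the double-positive barcodes and at 2832, 2257 and 519 CPM in the others (log2 -2.33, SE 0.34, adjusted p = 0.00107). Il22 fell by 2.06 on the log2 scale and Il17re by 1.33, while Maf, a transcription factor of IL-10 producing T cells, rose by 0.57.

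The Th1 and cytotoxic list had 0 of 14 genes higher and 9 lower (median log2 -1.17). It does not hold the granzyme gene Gzmb, which was counted with the suppressive mediators and rose by log2 1.27. Ifng fell by 2.29 on the log2 scale, Il12rb2 by 2.04, and Tbx21, the gene of the Th1 regulator T-bet, by 1.51. All 10 tested genes of conventional helper cells were lower (median log2 -1.08), among them Il2, the growth factor of T cells, and Cd40lg at log2 -2.07. Naive and recirculation genes were lower in 8 of 11 tested, and Tcf7, a regulator of naive and memory T cells, stood at 62.8, 51.8 and 71.7 CPM against 267, 234 and 396 CPM. That separation was complete (log2 -2.23, SE 0.07, adjusted p = 2.98e-07).

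Gut homing genes split, with 5 of 12 higher and 4 lower (median log2 0.14). Gpr15, a homing receptor of the large intestine, rose by log2 3.01 from a low level, and Ccr9, the small intestinal one, by 0.35. Cxcr6 and Itga1, genes of resident T cells, were lower at log2 -1.31 and -2.14. Of 16 NF-kB genes, 8 were higher and 2 lower (median log2 0.25), with Bcl3 at log2 0.73 and Nfkbia at 0.46. The Bcl3 UMIs of the double-positive barcodes came mostly from those labelled Bcl3-/- (835, 1004 and 148 in recipients 1, 2 and 4). Those labelled wild type held 19, 19 and 0. Bcl3 was higher in CD45.2 in every class (below), and the part of donor makeup in its rise was not tested. Tnfaip3 and Map3k14 were lower, at log2 -0.45 and -0.77, and Nfkb1 and Rela did not pass. Bcl2, a survival gene, stood at 32.0, 37.8 and 29.2 CPM against 122, 150 and 154 CPM (log2 -2.05, SE 0.08), while Bcl2l1 rose by 0.63. Of 14 IL-2 and STAT5 genes 8 were higher and 1 lower (median log2 0.27).

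The lists of 12 proliferation genes had 2 higher and 0 lower (median log2 0.19), Tyms and Rrm2, whose calls were both lost without recipient 2. The 14 T cell receptor response genes had 1 higher and 5 lower (median log2 -0.15), and the 12 dissociation genes 0 higher and 4 lower (median log2 -0.06). Markers of other cells also differed: Epcam was higher by log2 2.20, at 29.3, 38.4 and 29.2 CPM against 6.49, 8.47 and 4.65 CPM. The other epithelial genes tested amounted to 1, which was not called. The B cell genes Ighm and Cd79b were higher by log2 2.14 and 1.66. The part of such cells in these 3 differences was not tested.

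**Figure D2:**
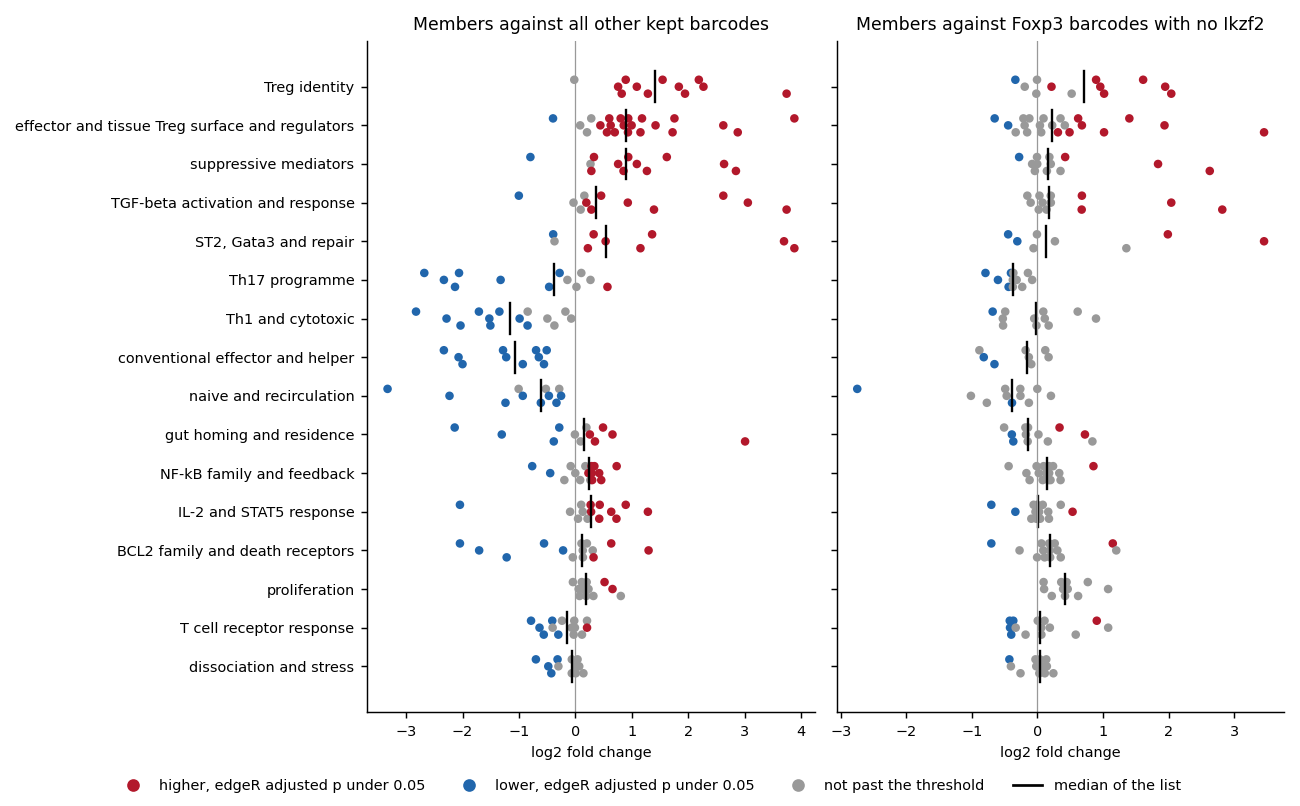
Log2 fold change (x axis) of each tested gene in 16 gene lists (y axis), for double-positive barcodes (members) against all other kept barcodes (left) and against Foxp3-only barcodes (right), from the edgeR fits over 3 recipients. Red and blue points passed the threshold, grey points did not, and the black bar is the list's median, which is 1.41 on the left and 0.71 on the right for Treg identity genes.

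The second comparison asked what goes with an Ikzf2 UMI among barcodes that all hold Foxp3. Against the 971 Foxp3-only barcodes, the double-positive ones had more Klrg1, Itgb8, Penk, Lrrc32, Areg, Nrp1 and Tnfrsf9 and less Ccl20, and Ctla4, Il2ra and Gzmb did not pass the test. Of 9482 genes, 3.94% were called (374), with 2.20% higher (209) and 1.74% lower (165), with a median log2 difference of -0.00301. This comparison shares its double-positive sums with the first. An Ikzf2 count of 0 can be a missed transcript, so the Foxp3-only class may hold Helios-positive cells. Among barcodes of at least 5000 UMIs, 314 genes were called, of which 281 were called in both fits.

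Klrg1 stood at 2.15, 0.840 and 6.27 CPM in the Foxp3-only barcodes, below all double-positive values (log2 3.46, SE 0.37, adjusted p = 8.21e-06). Swap70, a guanine nucleotide exchange and cytoskeletal factor, stood at 25.9, 42.3 and 37.6 CPM against 3.95, 3.78 and 0 CPM (log2 3.17, SE 0.26). Itgb8 stood at 39.7, 64.4 and 80.0 CPM against 7.89, 7.14 and 3.13 CPM (log2 2.82, SE 0.21, adjusted p = 1.09e-07). None of these 3 genes overlapped between the classes. The Foxp3-only levels rest on few counts, 10 UMIs of Klrg1, 20 of Swap70 and 40 of Itgb8 over the 3 recipients. Penk, the gene of the opioid precursor proenkephalin, stood at 59.8, 188 and 202 CPM against 15.1, 27.3 and 0 CPM (log2 2.63, SE 0.21, not called by DESeq2). Penk did not follow Foxp3: Ikzf2-only barcodes had 75.8, 235 and 189 CPM, and those with neither gene 22.5, 143 and 66.6 CPM. Areg stood at 244, 497 and 39.7 CPM against 64.6, 118 and 0 CPM (log2 1.99, SE 0.11), lowest in recipient 4 on both sides.

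Of 12 Treg identity genes, 7 were higher and 1 was lower than in Foxp3-only barcodes (median log2 0.71). Lrrc32, Nrp1 and Ikzf4 rose by log2 2.04, 1.95 and 1.61, Izumo1r, the gene of folate receptor 4, by 1.02, Tnfrsf18 by 0.96 and Tnfrsf4 by 0.89. Socs2, a STAT5-induced feedback inhibitor, was lower at log2 -0.34. Ctla4 and Il2ra stood at log2 -0.01 (SE 0.05) and -0.02 (SE 0.09) with adjusted p = 0.989 and 0.975. Among effector Treg genes, 8 of 21 were higher and 2 lower (median log2 0.22): Tnfrsf9 rose by log2 1.94, Pdcd1 (PD-1) by 1.40, Cd83 by 1.02, Itgae by 0.68 and Batf by 0.62, while Ccr2 and Ccr4 fell by 0.65 and 0.45. Pdcd1 stood at 26.9, 33.0 and 49.4 CPM against 9.33, 14.3 and 9.40 CPM, with no overlap.

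Of 12 suppressive mediators, 3 were higher and 1 was lower (median log2 0.16). Ebi3 rose by log2 1.84, from 6.82, 6.72 and 12.5 CPM to 21.4, 31.4 and 32.0 CPM. Il10 stood at 1074, 710 and 132 CPM in Foxp3-only barcodes, close to the double-positive 1036, 1003 and 155 CPM (log2 0.18, SE 0.08, adjusted p = 0.346), and was called without recipient 1 or without recipient 4. Gzmb and Icos were at log2 -0.0032 and 0.04 and did not pass. In the TGF-beta list 4 of 12 were higher and 0 lower (median log2 0.17), namely Itgb8, Lrrc32, Itgae and Itgav (log2 0.67).

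The Th17 list had 0 of 11 higher and 4 lower (median log2 -0.38), among them Il17re at log2 -0.79, Ltb4r1 at -0.60 and Il17a at -0.44. The largest fall among well-expressed genes was in Ccl20, the chemokine ligand of CCR6: it stood at 60.1, 90.3 and 45.9 CPM against 242, 246 and 207 CPM (log2 -1.81, SE 0.11, adjusted p = 8.45e-09). Gbp2b, Gm2682, Fam26f, Tmem176a, Selenom, Pik3ip1, Tmem176b, Cpe and Acvr2a followed, at log2 -1.25 to -0.85. Tmem176a and Tmem176b, a neighbouring pair of membrane protein genes, stood at 233, 177 and 205 CPM and at 275, 225 and 237 CPM in the double-positive barcodes, below every Foxp3-only value (347, 396 and 523 CPM, and 411, 461 and 476 CPM). Gbp2b, a guanylate-binding protein gene, was at most 2.30 CPM in barcodes without Foxp3.

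Pglyrp1, Rgs16 and Mt1 completed the 10 largest rises, at log2 2.05, 2.52 and 1.98. Rel, an NF-kB subunit, rose by log2 0.85 and was the 1 of 16 NF-kB genes called. Cd40lg and Bcl2 fell by 0.82 and 0.70. Epcam and Ighm rose again, by log2 1.85 and 1.43, and of 12 proliferation genes 11 were tested and 0 called (3 at an unadjusted p under 0.05). Recipient 2 weighed heavily: without it 65 genes were called, and the calls of Nrp1, Socs2, Il17a, Il17re, Ltb4r1, Ccr4, Cd40lg, Bcl2, Fam26f, Selenom, Pik3ip1, Cpe and Acvr2a were lost, with directions kept. Without recipient 4, whose Foxp3-only class had 68 barcodes, 656 were called. DESeq2 called 102 genes, and with recipient 3 added edgeR called 16.

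Levels also graded with the number of Ikzf2 UMIs in Foxp3 barcodes, as a description with no test. At 0, 1, 2, 3 and 4 or more Ikzf2 UMIs, Tnfrsf9 in recipient 1 stood at 52.7, 76.8, 117, 116 and 275 CPM. In recipient 2 it stood at 63.8, 69.3, 107, 148 and 307 CPM, and in recipient 4 at 18.8, 121, 97.7, 207 and 252 CPM. The highest bin was the highest in all 3 recipients. Klrg1 was at most 6.27 CPM below 4 Ikzf2 UMIs, apart from 21.7 CPM at 2 UMIs in recipient 2, and 37.6, 29.7 and 21.0 CPM at 4 or more. Foxp3 itself had no such gradient, at 402, 401, 372, 334 and 391 CPM in recipient 1. Ccl20 stood at 242, 246 and 207 CPM at 0 and at 53.7, 50.6 and 3.31 CPM at 4 or more, with no even descent between (228 CPM at 3 UMIs in recipient 2). Depth moved with the bins: the median barcode had 5228, 5249.5 and 4989 UMIs at 0 and 6218.5, 6030 and 5795.5 UMIs at 4 or more, and its part in the gradients was not tested.

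**Figure D3:**
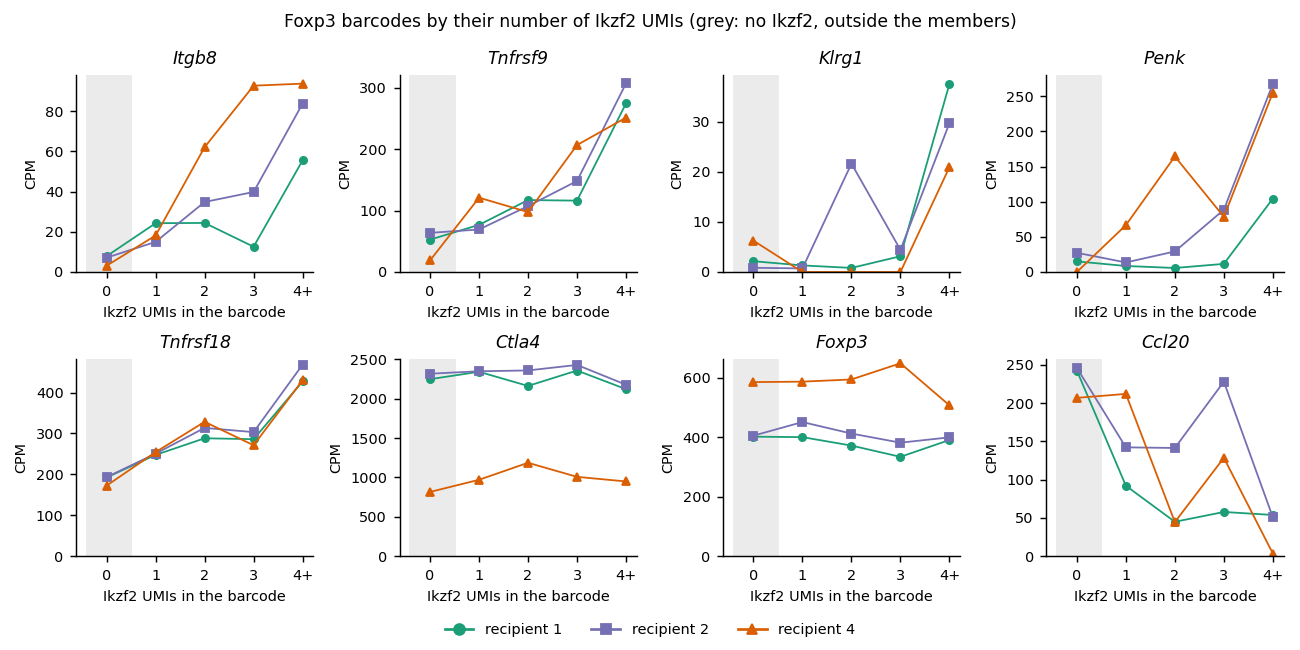
Level in CPM (y axis, linear, from 0) of 8 genes in Foxp3 barcodes grouped by their number of Ikzf2 UMIs (x axis), 1 line per recipient, with barcodes outside the double-positive class on grey. Itgb8, Tnfrsf9, Tnfrsf18, Klrg1 and Penk are highest at 4 or more UMIs in every recipient, and Ccl20 is lowest there in recipients 2 and 4 and at 2 UMIs (44.8 CPM) in recipient 1.

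Within the double-positive barcodes, single genes were seen in part of the cells, and shares are given after thinning to 3000 UMIs. Gata3 was found in 208 of 1088, 225 of 1340 and 45 of 211 thinned barcodes of recipients 1, 2 and 4, or 19.1%, 16.8% and 21.3%. In barcodes with neither Foxp3 nor Ikzf2 its thinned shares were 15.5%, 15.3% and 17.5%, lower in each recipient, though the ranges overlapped. They were 16.1%, 16.2% and 19.5% in Ikzf2-only barcodes, close to the double-positive shares, and 16.3%, 14.8% and 14.6% in Foxp3-only barcodes.

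Tnfrsf9 was found more often beside Itgb8, in 58.2%, 59.9% and 65.6% of double-positive barcodes with it and in 28.9%, 30.1% and 25.7% of those without. Areg was found in 28.3%, 57.4% and 16.7% of those with Klrg1 and in 13.4%, 23.8% and 4.39% of those without, from 46, 54 and 6 barcodes with Klrg1. Il10 showed no such tie to Klrg1, at 58.7%, 64.8% and 0% with and 61.9%, 58.1% and 21.0% without. These are descriptions of cells that share a library and a depth.

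The last comparison was between donors, within the double-positive barcodes. Bcl3 (chromosome 7, 19808462 to 19822770, minus strand) was read first, since it checks the labels. In barcodes labelled wild type (CD45.1) it stood at 77.2, 69.1 and 0 CPM, from 19, 19 and 0 UMIs. In those labelled Bcl3-/- (CD45.2) it stood at 112, 111 and 110 CPM, from 835, 1004 and 148 UMIs. The gene thus went against the label in direction, though the difference within these barcodes did not pass (log2 0.56, SE 0.23, edgeR adjusted p = 0.628 over recipients 1 and 2). It went the same way in every other class and recipient. In barcodes with neither gene Bcl3 stood at 30.0, 18.1 and 15.3 CPM in CD45.1 and at 68.8, 68.3 and 64.2 CPM in CD45.2. In Ikzf2-only barcodes it stood at 28.2, 21.1 and 12.9 CPM against 68.3, 67.9 and 71.8 CPM, and in Foxp3-only barcodes at 12.5, 33.2 and 0 CPM against 99.2, 83.4 and 74.8 CPM. The donors did not overlap in any class, and whether tags or labels were exchanged was not tested. The 3' ends that were counted check nothing if they lie outside the deleted part. Groups are therefore called by what their labels say, and the directions given for donors depend on those labels.

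Helios-positive Treg cells were a smaller share of the cells labelled wild type in all 3 recipients. Double-positive barcodes were 36 of 736 CD45.1 barcodes in recipient 1, 40 of 851 in recipient 2 and 3 of 102 in recipient 4, or 4.89%, 4.70% and 2.94%. Of CD45.2 barcodes they were 1093 of 8398, 1339 of 8198 and 236 of 1289, or 13.0%, 16.3% and 18.3%. The means were 4.18% ± 1.08 and 15.9% ± 2.68 (SD, n = 3), and the groups did not overlap. The log2 odds were higher in CD45.2 by 2.05 in the mean and in 3 of 3 recipients, with an exact two-sided sign-flip permutation p = 0.25, the smallest that 3 recipients can give. After thinning the difference was 1.76.

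Shares of Foxp3-only barcodes, and of Ikzf2 among Foxp3 barcodes, were lower in CD45.1. At equal depth the second difference was small in recipients 1 and 2. Foxp3-only barcodes were 3.57%, 2.59% and 3.03% of the remaining CD45.1 barcodes and 6.13%, 5.72% and 6.08% of the remaining CD45.2 barcodes. Among barcodes with Foxp3, those with Ikzf2 were 36 of 61, 40 of 61 and 3 of 6 in CD45.1 (59.0%, 65.6% and 50.0%) and 70.9%, 77.4% and 78.7% in CD45.2. The mean difference in log2 odds was 1.17, of 1 sign in 3 of 3 recipients (exact permutation p = 0.25). After thinning it was 0.55, at 0.27, 0.32 and 1.07 in recipients 1, 2 and 4. The thinned shares were 53.8%, 65.0% and 60.0% (3 of 5 barcodes) in CD45.1 and 58.4%, 69.6% and 74.7% in CD45.2. Each of these CD45.2 shares lay inside the exact 95% interval of CD45.1 (37.2 to 69.9, 48.3 to 79.4 and 14.7 to 94.7). In all, 2 comparisons of shares were made, and neither could reach a smaller p. Within the double-positive barcodes the level of Ikzf2 went the other way, at 1170, 1265 and 2364 CPM in CD45.1 and at 772, 994 and 1157 CPM in CD45.2, with no overlap. The CD45.1 values came from 288, 348 and 39 UMIs, in recipient 4 from 3 barcodes. Ikzf2 is a gene of the rule, so its level is a description with no test. The median double-positive barcode had 5620.5, 6390 and 5968 UMIs in CD45.1 and 5747, 5661 and 5381 in CD45.2.

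**Figure D4:**
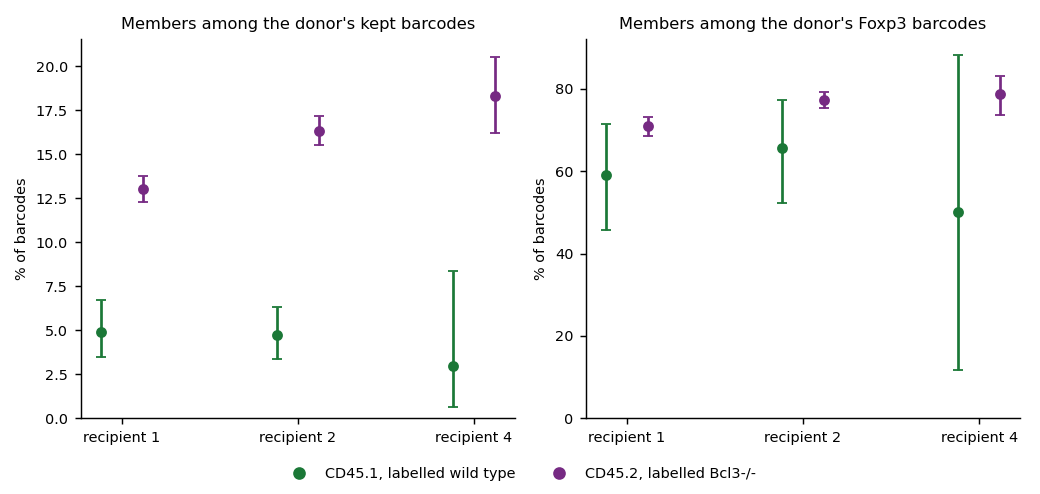
Share of double-positive barcodes (y axis, %, from 0) among each donor's kept barcodes (left) and among each donor's Foxp3 barcodes (right) in recipients 1, 2 and 4, with exact binomial 95% intervals that cover counting error only. On the left all CD45.1 shares (2.94% to 4.89%) lie below all CD45.2 shares (13.0% to 18.3%), and on the right the intervals are wide because CD45.1 had 61, 61 and 6 Foxp3 barcodes.

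Expression by donor was tested in recipients 1 and 2, since recipient 4 had 3 CD45.1 members. The double-positive barcodes labelled Bcl3-/- had more of the costimulatory ligand Cd86, the cytokine Il22, the chemokine Cxcl10 and Furin, and less Nfkbid, Izumo1r and Cd27. Of 10198 genes, 0.255% were called (26), with 0.0981% higher in CD45.2 (10) and 0.157% lower (16), with a median log2 difference of 0.04. The calls rest on 76 CD45.1 barcodes in 2 animals, and 0 genes were called without the recipient as a block (822 at an unadjusted p under 0.05). With recipient 4 added 64 were called, of which 16 were among the 26, and the named genes Rgs1, Jun, Rps13 and Gm42418 lost their calls. The level of Ikzf2 was higher in CD45.1 members (above), and its part in these differences was not tested.

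Cd86 was counted 2 and 0 times in CD45.1 barcodes of recipients 1 and 2, 8.12 and 0 CPM, and stood at 78.2 and 64.7 CPM in CD45.2. The ratio of the summed counts was 18.5, with an exact 95% counting interval of 5.10 to 153 (log2 4.16, SE 0.61, edgeR adjusted p = 0.0186, not called by DESeq2). Il22 stood at 0 and 14.5 CPM against 142 and 128 CPM (log2 4.07, SE 0.52, not called by DESeq2). The donors did not overlap in either gene.

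Cxcl10 stood at 48.7 and 25.4 CPM against 131 and 257 CPM (log2 2.31, SE 0.34). Tnfsf8, the CD30 ligand, stood at 56.9 and 32.7 CPM against 159 and 138 CPM, and Furin at 126 and 185 CPM against 550 and 438 CPM (log2 1.59, SE 0.21). Each rise was seen in both recipients, and DESeq2 did not call Tnfsf8, Rbm24, Ppp1r14c or Sdhaf1. Rgs1, Jun, Dock10, Rbm24 and Ppp1r14c were the other 5 that rose, Rgs1 from 861 and 702 CPM to 2015 and 1768 CPM. Rgs1 lies within 10 Mb of Ptprc, the gene that encodes CD45, so the strain of the marker and the label cannot be told apart for it.

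Nfkbid, the gene of the atypical IkB protein IkBNS, stood at 97.5 and 113 CPM in CD45.1 and at 33.8 and 32.6 CPM in CD45.2 (log2 -1.72, SE 0.27, adjusted p = 0.0257). Izumo1r stood at 402 and 403 CPM against 143 and 172 CPM (log2 -1.41, SE 0.15, adjusted p = 0.0026). Cd27, a TNF receptor family member, stood at 252 and 309 CPM against 115 and 152 CPM (log2 -1.13). In these 3 genes CD45.1 was above CD45.2 with no overlap. Nfkbid lies on chromosome 7 (30421732 to 30428746), as Bcl3 does, and the part of linkage in its difference was not tested. Adk, Epcam, Sdhaf1, Rps13 and Gm42418 were lower as well, at log2 -2.20 to -0.51. The remaining calls included Mef2c and the B lineage genes Cd79a, Igkc, Igha, Iglc2, Iglc3 and Jchain, named here after their values were seen.

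The 7 B cell genes summed to 646 and 27265 CPM in CD45.1 members of recipients 1 and 2, against 257 and 1326 CPM in CD45.2, and 1 CD45.1 and 6 CD45.2 members of recipient 2, and 0 of recipient 1, held at least 50 Igkc UMIs. Without such barcodes, an alternative chosen after seeing the data, 25 genes were called, of which 18 were called in both fits. Of the named genes Gm42418 lost its call there, and Tnfrsf4 gained one. Epcam stood at 69.0 and 134 CPM in CD45.1 against 28.0 and 35.7 CPM, while the other 6 epithelial markers were at 0 in CD45.1 members.

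Bcl3 is known to act through NF-kB p50 and p52. The stretch before the RefSeq start is shown for 2 called genes, Nfkbid and Cxcl10 (RefSeq, GRCm38.p6). These 2 genes were chosen after their values were seen, and whether Bcl3 or NF-kB acts on them here was not tested. Each is the 250 bases before the start, 5′ to 3′ on the gene's strand. Capitals mark matches, on either strand, to GGG followed after any 5 bases by CC, and matches may overlap. Nfkbid, chr7:30421481-30421730, plus strand, had 2 matches on each strand in the first of 3 listed starts, and Cxcl10, chr5:92348890-92349139, minus strand, had 3 and 1.
Nfkbid: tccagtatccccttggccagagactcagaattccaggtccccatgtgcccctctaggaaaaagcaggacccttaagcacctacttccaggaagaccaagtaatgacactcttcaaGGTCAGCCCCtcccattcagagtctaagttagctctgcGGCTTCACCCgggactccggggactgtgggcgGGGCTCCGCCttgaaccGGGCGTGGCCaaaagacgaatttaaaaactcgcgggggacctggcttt
Cxcl10: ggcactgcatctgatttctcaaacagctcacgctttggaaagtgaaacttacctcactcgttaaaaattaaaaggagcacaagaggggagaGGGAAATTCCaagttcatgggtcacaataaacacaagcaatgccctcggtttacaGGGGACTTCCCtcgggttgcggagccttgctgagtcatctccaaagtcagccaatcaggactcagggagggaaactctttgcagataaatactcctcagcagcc
Of 32851 such windows in the table, 45.8% hold a match, and a match is a description of letters, not a bound site.

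Treg genes named above were mostly not called by donor. Of 12 Treg identity genes 0 were higher and 1, Izumo1r, was lower (median log2 -0.41). Itgb8 stood at 81.2 and 80.0 CPM in CD45.1 and at 38.6 and 65.8 CPM in CD45.2 (log2 -0.71, adjusted p = 0.624), Lrrc32 at 44.7 and 61.8 against 16.5 and 25.7 CPM (log2 -1.40, adjusted p = 0.178) and Tnfrsf4 at 784 and 854 against 452 and 636 CPM (log2 -0.66, adjusted p = 0.0674). All 3 were higher in CD45.1 in both recipients and did not pass. Il10, which also lies within 10 Mb of Ptprc, stood at 788 and 1127 against 1063 and 1012 CPM (log2 0.07). Of 16 NF-kB genes, Nfkbid alone was called, lower in CD45.2, and Rel, Nfkb1 and Nfkb2 stood at log2 -0.60, -0.12 and -0.18. Of 12 Th17 genes Il22 alone was called, higher in CD45.2 (median log2 0.89).

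**Figure D5:**
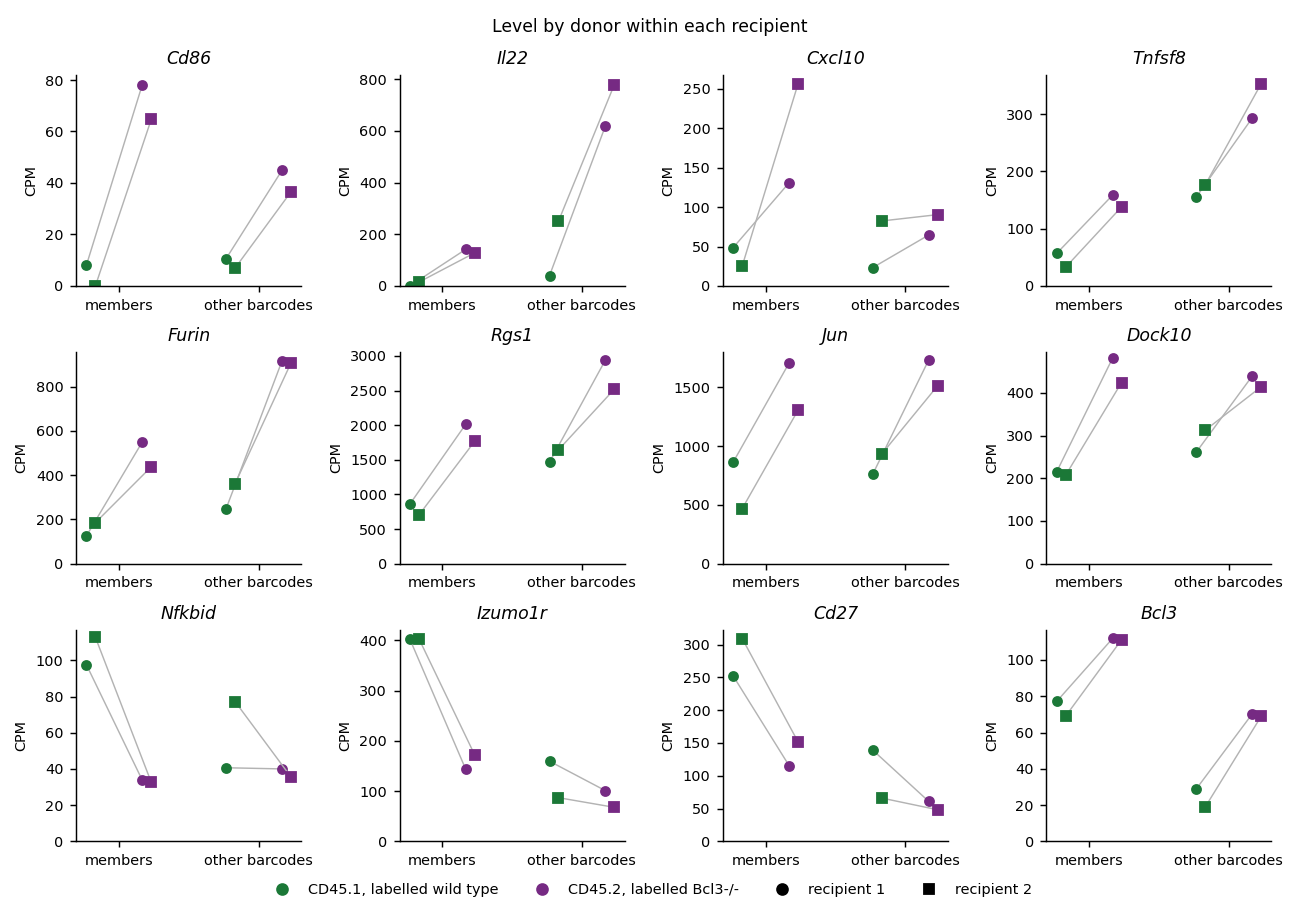
Level in CPM (y axis, linear, from 0) of 12 genes in CD45.1 (green) and CD45.2 (purple) barcodes of recipients 1 (circle) and 2 (square), for double-positive (members) and for all other kept barcodes, with lines joining the donors of 1 recipient. In the double-positive barcodes Cd86, Il22, Cxcl10, Tnfsf8, Furin, Rgs1, Jun and Dock10 are higher in CD45.2, Nfkbid, Izumo1r and Cd27 are higher in CD45.1, and Bcl3 is higher in CD45.2 in both classes.

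Whether a donor difference differs between double-positive and other barcodes was tested as an interaction in the same 2 recipients. Of 11212 genes 0.276% were called (31): 0.0357% had a higher CD45.2 to CD45.1 ratio in the double-positive barcodes (4) and 0.241% a lower one (27). The lower ones included 3 genes of the plasma cell list and 1 of the B cell list. Without barcodes of at least 50 Igkc UMIs, 22 genes were called, of which 21 were called in both fits. Furin rose in CD45.2 members, but it was higher in CD45.2 among other barcodes as well, at 916 and 906 against 249 and 362 CPM, and its interaction was log2 0.14 (adjusted p = 0.907). The interactions of Cd86, Nfkbid and Izumo1r were log2 2.09, -0.96 and -0.73 and did not pass either, so these donor differences were not shown to be particular to the double-positive barcodes. Il10 had a log2 interaction of -1.55 (SE 0.20, adjusted p = 0.0023): it stood at 50.6 and 54.1 CPM in CD45.1 and at 192 and 169 CPM in CD45.2 among other barcodes, and at similar levels by donor in the double-positive ones. Neb, Sdc4 and Nckap5 had the same form, at log2 -1.68, -1.64 and -2.33. Arl4c had the opposite sign, at log2 1.37.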

How the data were processed

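Gene expression and 2 cell-surface tags were measured by droplet single-cell RNA sequencing in 4 libraries. The authors deposited filtered matrices of UMI counts over 31053 genes and 2 tags, made with Cell Ranger 6.1.1 and the mm10 genome, per the submitters' processing notes. Barcodes were kept with at least 500 genes and at most 10% mitochondrial UMIs. A donor was assigned with at least 10 tag UMIs and a ratio of at least 4 between the tags, and barcodes that missed either limit stayed out of donor comparisons. No doublet caller was run. An alternative left out barcodes above 3 times the median UMI count.

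Raw counts were summed per recipient and class (and donor) and tested with edgeR 4.0.16 (R 4.3.3, limma 3.58.1) by the quasi-likelihood test, with filterByExpr, TMM factors, a block for recipient, and p-values adjusted by Benjamini-Hochberg with a threshold of 0.05. Recipients are separate animals, and both classes of 1 recipient come from the same animal. Same-recipient sums deviated together, with correlations of 0.694, 0.745 and 0.800 over 4302 genes in the comparison with all other barcodes and of 0.578, 0.581 and 0.656 over 4025 genes in that with Foxp3-only barcodes. Donor tests needed at least 10 members of each donor, which recipients 1 and 2 had. Foxp3 and Ikzf2 were left out of all tests. Shares were compared by an exact sign-flip permutation test of log2 odds with 0.5 added to each count. Scripts were tested on simulated data. DESeq2 1.42.0 was an alternative. Python 3.11.15, numpy 2.4.6, scipy 1.17.1 and pandas 2.3.3 were used.

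Named genes were the 10 largest rises and 10 largest falls among called genes whose mean log2 CPM reached 4 and whose sign was shared by every recipient, leaving out Foxp3, Ikzf2, immunoglobulin, T cell receptor and mitochondrial genes, plus genes of the lists. Genes within 10 Mb of Ptprc were marked. The members and the lists were chosen with earlier results of these data known. Alternatives with CD45.2 barcodes alone and without immunoglobulin-rich barcodes were chosen after seeing the data. Positions are those of mm10 (GENCODE annotation), and promoter sequences come from RefSeq (GRCm38.p6). Some genes of these lists are not reported here.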

Additional observations from a re-analysis of the deposited data

Results flagged for a closer look

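Of the 31 genes called by the interaction test, 14 met the rule for named genes. For these 14 the log2 difference between donors (CD45.2 against CD45.1) differed between double-positive and other barcodes, by edgeR's interaction test in recipients 1 and 2. The values below are the difference in double-positive barcodes minus that in other barcodes.

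The negative ones were Ccl20 (-2.93), Srgap3 (-2.57), Nckap5 (-2.33), Rgs9 (-2.10), Myo1e (-1.90), Gzma (-1.80), Neb (-1.68), Sdc4 (-1.64), Il10 (-1.55) and Gem (-1.42). Ccl20 stood at 52.8 and 469 CPM in CD45.1 and at 54.4 and 81.1 CPM in CD45.2 double-positive barcodes, so recipient 2 alone was high. An alternative took members with at least 2 UMIs of Foxp3 and of Ikzf2, and only barcodes with neither gene as the others. There the interaction of Ccl20 turned to 0.85 (adjusted p = 0.821), and 5 of the 31 calls were shared with that setting. Both classes changed in it, and their separate parts were not tested. Rgs9, a regulator of G protein signalling, stood at 85.3 and 40.0 CPM against 72.7 and 61.5 CPM in double-positive barcodes, and at 4.76 and 5.39 CPM against 25.6 and 25.8 CPM in the others. Gzma, a granzyme, stood at 292 and 425 CPM against 190 and 378 CPM, and at 138 and 297 CPM against 493 and 705 CPM in the others. Il10 lies within 10 Mb of Ptprc.

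The positive ones were Arl4c (1.37), Myo9b (2.18), Gpr18 (3.02) and Trat1 (3.33). Trat1, a T cell receptor adaptor gene, was counted 3 times in CD45.1 double-positive barcodes and 586 times in CD45.2 ones, a ratio of 6.17 with an exact 95% counting interval of 2.10 to 30.0. In other barcodes it stood at 74.0 and 123 CPM in CD45.1 and at 48.3 and 79.0 CPM in CD45.2. DESeq2 did not call Ccl20, Gpr18, Myo9b or Trat1.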

How the results depend on the processing

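The comparison with all other barcodes called 2629 genes. It called 844 with no replicate block, 0 with recipient 3 added and 1609 to 2691 with 1 recipient left out, lowest without recipient 2. The comparison with Foxp3-only barcodes called 374 genes, against 102 by DESeq2, 17 with no replicate block, 16 with recipient 3 added and 65 to 656 with 1 recipient left out. The donor comparison called 26 genes, against 148 with no filter on low counts, 0 with no replicate block (822 at an unadjusted p under 0.05), 68 with at least 2 UMIs of Foxp3 and of Ikzf2 and 64 with all 3 recipients. The interaction called 31 genes, against 145 with no filter and 1 with no replicate block. It called 22 without barcodes of at least 50 Igkc UMIs and 21 without barcodes above 3 times the median UMI count. It called 6 with at least 2 UMIs of each gene in members and neither gene in the others. The cause of these shifts was not tested.

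Of the named genes 2 values changed sign: Fos against Foxp3-only barcodes was 0.0107 by DESeq2 (adjusted p = 1.00), and the interaction of Ccl20 was 0.85 with at least 2 UMIs of each gene in members and neither gene in the others (adjusted p = 0.821). Differences in share between donors kept their sign under every alternative run, at log2 odds of 1.75 to 2.40 for the share of all barcodes and 0.55 to 1.42 for that of Foxp3 barcodes. Leaving out a recipient was not run for the donor fits, since 1 recipient leaves no residual degrees of freedom. The 76 CD45.1 members of recipients 1 and 2 limit the donor comparison, and recipient 4, with the fewest barcodes and UMIs, limits levels of sparse genes. Recipient 4 also differed in well-counted genes of the double-positive barcodes, at a similar median depth. Fos stood at 59.2 CPM there, against 621 and 411 CPM in recipients 1 and 2, and Junb at 942 against 3283 and 3262 CPM. Cd69 stood at 258 against 914 and 719 CPM, while Egr1 was higher, at 121 against 62.5 and 57.2 CPM. The cause was not tested.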
